A study of Homo sapiens with 28 samples.

Results

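ONECUT2 silencing in normoxic PC3 cells was measured by RNA-Seq in 4 libraries, 2 with a control siRNA (siCtrl) and 2 with an siRNA against ONECUT2 (siOC2), out of 16 RNA-Seq libraries and 28 samples in the series. PC3 is an established human prostate cancer line that grows without androgen and carries features of small cell neuroendocrine carcinoma. By the labels, siOC2 library 1 received siRNA1 and siOC2 library 2 received siRNA2, so each siRNA has 1 library and the spread within siOC2 includes the difference between the siRNAs. The siRNAs were transfected with a lipid reagent. The other 4 PC3 libraries hold the same treatments in hypoxia and entered the fit so that all groups share an estimate of the spread. All 4 groups are transient transfections of 1 cell line, and the labels do not say that the siCtrl libraries came from separate cultures, so the p-values measure only the spread between these libraries. Of 19662 gene symbols in the table, the 12214 with at least 1 RPKM (read number scaled to transcript length and sequencing depth) in at least 2 of the 8 PC3 libraries were tested. The comparison asks which genes ONECUT2 controls in NE-like cells when oxygen is not limiting.

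ONECUT2 is a homeodomain transcription factor of the cut family that acts in liver, pancreas and neuron development and is known as a driver of androgen-independent prostate cancer. It binds DNA through a cut domain together with a homeodomain, at a core written as ATCGAT or ATTGAT. Neuroendocrine prostate cancer arises when luminal tumor cells stop responding to androgen and take on neuronal features, and it divides quickly. In dividing cells, the genes of S phase, among them the clustered histone genes, and the genes of G2 and mitosis are switched on in turn.

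The line was checked against its markers before the results. KRT7 lay between 109 and 265 RPKM, CD44 between 260 and 555, KRT8 between 41.9 and 70.0 and KRT18 between 17.7 and 19.8 in the 4 normoxic libraries. KLK2 and KLK3, the androgen-driven prostate kallikreins, were listed at 0 in all 4. The 9 marker genes of LNCaP, the other line of the study, summed to 15.0 and 17.9 RPKM with siCtrl and to 20.4 and 15.7 with siRNA1 and siRNA2. CTNNA1, the alpha-catenin that PC3 cells are known to have lost, was listed at 0.128 to 1.36 RPKM. Depth was estimated from low RPKM relative to siCtrl replicate 2. It was 0.418 in siCtrl replicate 1, 1.15 with siRNA1 and 0.877 with siRNA2, so low values are least precise in siCtrl replicate 1.

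ONECUT2 itself, which spans chr18:55102606-55158530 in GRCh37, was at 1.77 and 1.16 RPKM in the siCtrl libraries, 0.276 with siRNA1 and 0.204 with siRNA2. Both siOC2 libraries lay below both siCtrl libraries. The log2 change was -2.03 with siRNA1 and -2.34 with siRNA2, and the fitted change of -2.18 (SE 0.65) passed the call but not adjustment over all genes (limma adjusted p = 0.332). These levels are near the 1 RPKM limit, and the call of ONECUT2 was lost with a pseudocount of 1 (change -0.98) and without siCtrl replicate 1 (change -1.90). ONECUT3, its paralog, was at 1.29 and 1.5 RPKM with siCtrl and at 0.625 and 0.742 with siOC2, a change of -0.94 that was not called (limma adjusted p = 0.58). ONECUT1 was at 0.378 and 0.386 RPKM with siCtrl and at 0.267 and 0.151 with siOC2, below the limit for a test. SMAD3, a transducer of TGF-beta signals, was at 59.9 and 75.9 RPKM with siCtrl and at 61.1 and 38.8 with siOC2, groups that overlapped (change -0.47, limma adjusted p = 0.682).

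A gene was called where the limma fit gave more than a 2-fold change and an unadjusted P under 0.05. Silencing decreased 194 genes (1.59% of those tested) and increased 442 (3.62%). With each siRNA alone, 124 of the decreased genes (1.02% of those tested) and 285 of the increased genes (2.33%) were over 2-fold from the siCtrl mean. The limits are a low bar for a 2 against 2 comparison: 1124 genes had an unadjusted P under 0.05 where 611 would be expected with no change, and after Benjamini-Hochberg adjustment 1 decreased gene, NOX5, and 0 increased genes passed 0.05. Scaling each library to its upper quartile moved the split to 261 decreased and 341 increased, a decreased share of 43.4% in place of 30.5%. It moved the median change of all genes from 0.126 to 0.028. Leaving out 1 library also shifted the counts over all genes, so list counts from such runs do not stand alone. Without siCtrl replicate 1 the increased genes numbered 225, without siCtrl replicate 2 the decreased genes numbered 111, and without siRNA1 the decreased genes numbered 370.

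Histone genes, a group chosen after its values were seen, made up a large share of the decreased genes. Of 60 tested genes of the histone clusters (symbols starting with HIST1H to HIST4H), 41 fell (68.3%, against 1.59% of all genes), 37 of them over 2-fold with each siRNA, and 0 rose. They were 21.1% of all 194 decreased genes. These genes encode the H1, H2A, H2B, H3 and H4 proteins that package newly copied DNA, and their transcripts are made mainly in S phase.

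Summed over the 60 genes, the level was 8760 and 10100 RPKM in the siCtrl libraries, 4080 with siRNA1 and 3230 with siRNA2. The siOC2 libraries were below the siCtrl libraries without overlap. The fall extended over every class: 3 of 3 H1 genes, 10 of 16 H2A genes, 10 of 17 H2B genes, 11 of 12 H3 genes and 7 of 12 H4 genes were called. HIST1H3B was at 502 and 526 RPKM with siCtrl, 157 with siRNA1 and 121 with siRNA2 (change -1.90, SE 0.23, limma adjusted p = 0.0603), the smallest adjusted p among them. HIST1H2AD, at 663 and 800 RPKM with siCtrl, was at 274 and 168 with the siRNAs. HIST1H3D, at 174 and 172 RPKM with siCtrl, was at 66.3 with siRNA1 and 19.5 with siRNA2. The median over the 60 genes was -1.27, with -1.10 for siRNA1 and -1.43 for siRNA2, against 0.13 over all genes tested.

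Of the 5 cluster genes with a positive change, none was called. HIST1H2AC was at 34.8 and 43.1 RPKM with siCtrl and at 40.5 and 61.9 with siOC2, groups that overlapped (limma adjusted p = 0.905), while HIST2H2BE was at 8.64 and 8.70 and at 9.71 and 10.3, without overlap. The number called decreased was 35 without siCtrl replicate 2 and 36 without siRNA2. Outside the clusters, 11 genes for replacement histones, which are made throughout the cell cycle, were tested. Of these, 0 were called decreased and 1 was called increased. At the shares of all genes (1.59% and 3.62%), few calls would be expected among 11 genes. Most of the 11 had a negative change that was not called. H3F3A, a source of the H3.3 protein, was at 20.0 and 23.1 RPKM with siCtrl, 51.5 with siRNA1 and 86.8 with siRNA2 (change 1.64, limma adjusted p = 0.299). H3F3B, the other H3.3 gene, was at 305 and 347 with siCtrl and 373 and 337 with siOC2, and was not called. NPAT, the activator of histone gene transcription, was at 11 and 13.2 RPKM with siCtrl and 15.1 and 12.6 with siOC2, and SLBP, which binds the stem-loop of histone messages, was at 30.4 and 32.4 and at 34.1 and 36.4. Neither NPAT nor SLBP was called. Histone genes share near-identical stretches (HIST2H3A and HIST2H3C were both listed at 41.4 RPKM in siCtrl replicate 1), so reads may be split between them, and most of their transcripts lack the poly(A) tail that the library kit selects. The part of tail selection in the result was not tested.

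Mitotic genes were lower as a group. Of 64 tested genes for mitosis and G2/M, 10 fell (15.6%, against 1.59% of all genes) and 0 rose. A negative change was seen in 62 of the 64, against 4730 of all 12214 genes tested. The median was -0.66, with -0.72 for siRNA1 and -0.65 for siRNA2. With each siRNA, 58 of the 64 were below the siCtrl mean, against 2618 of the 12214. Without siCtrl replicate 2, the number called fell to 2 while the median was -0.57. None of the 64 had an adjusted p under 0.05 in the limma fit, and 21 had an unadjusted P under 0.05.

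CDCA3, which triggers the destruction of a mitotic entry inhibitor, was at 42.0 and 39.8 RPKM with siCtrl and at 17.9 and 18.8 with siOC2 (change -1.15, SE 0.26, limma adjusted p = 0.192). INCENP, the scaffold of the chromosomal passenger complex, was at 8.81 and 7.95 with siCtrl and at 3.80 and 3.42 with siOC2. In both genes the siRNAs gave nearly the same level. CKAP2L, a spindle protein, was at 54.4 and 78.1 RPKM with siCtrl and at 32.6 and 28.3 with siOC2. KIF20A, a kinesin of cytokinesis, was at 14.8 and 17.8 with siCtrl and at 6.43 and 7.01 with siOC2. HMMR, a hyaluronan receptor that also sits on the spindle, was at 31.9 and 37.4 with siCtrl and at 15.8 and 15.3 with siOC2. The other called members were KIF4A, PRC1, KIF2C, DLGAP5 and DEPDC1, with changes from -1.26 to -1.05. DEPDC1 differed most between the siRNAs, at 30.7 RPKM with siRNA1 and 10.6 with siRNA2 against 41.0 and 46.0 with siCtrl.

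Promoters of mitotic genes commonly carry a cell cycle homology region, whose core reads TTTGAA, and CCAAT boxes, so the promoters of the 5 called mitosis genes with the smallest P are shown. They come from RefSeq (GRCh38.p14), run 5' to 3' on the gene's strand from 250 bases before to 50 bases after the start, and show in capitals every TTTGAA and CCAAT on either strand (TTCAAA and ATTGG on the other strand). CDCA3 lies at chr12:6851237-6851536 (minus strand), INCENP at chr11:62123761-62124060 (plus), CKAP2L at chr2:112764560-112764859 (minus), KIF20A at chr5:138178862-138179161 (plus) and HMMR at chr5:163460382-163460681 (plus).
CDCA3: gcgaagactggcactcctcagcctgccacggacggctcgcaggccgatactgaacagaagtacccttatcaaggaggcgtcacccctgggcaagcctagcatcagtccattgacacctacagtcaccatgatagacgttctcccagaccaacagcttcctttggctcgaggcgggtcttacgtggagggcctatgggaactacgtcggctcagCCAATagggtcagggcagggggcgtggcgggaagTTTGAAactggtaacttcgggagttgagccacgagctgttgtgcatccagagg
INCENP: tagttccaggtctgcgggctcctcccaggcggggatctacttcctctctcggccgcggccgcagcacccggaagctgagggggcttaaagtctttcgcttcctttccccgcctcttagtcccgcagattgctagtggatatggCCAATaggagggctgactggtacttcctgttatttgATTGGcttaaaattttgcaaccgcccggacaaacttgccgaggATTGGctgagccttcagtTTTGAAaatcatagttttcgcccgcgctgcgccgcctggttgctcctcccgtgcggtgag
CKAP2L: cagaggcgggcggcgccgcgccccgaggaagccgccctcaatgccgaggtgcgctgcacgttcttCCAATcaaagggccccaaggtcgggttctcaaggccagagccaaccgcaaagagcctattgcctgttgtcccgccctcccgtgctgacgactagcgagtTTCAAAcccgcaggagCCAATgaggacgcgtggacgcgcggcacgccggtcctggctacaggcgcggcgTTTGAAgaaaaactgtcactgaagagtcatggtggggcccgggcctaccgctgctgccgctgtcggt
KIF20A: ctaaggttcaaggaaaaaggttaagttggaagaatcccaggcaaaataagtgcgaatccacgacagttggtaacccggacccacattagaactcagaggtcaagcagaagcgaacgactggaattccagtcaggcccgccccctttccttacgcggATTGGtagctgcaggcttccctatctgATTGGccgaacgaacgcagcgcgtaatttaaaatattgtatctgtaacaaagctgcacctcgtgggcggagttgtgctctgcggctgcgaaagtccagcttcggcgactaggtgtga
HMMR: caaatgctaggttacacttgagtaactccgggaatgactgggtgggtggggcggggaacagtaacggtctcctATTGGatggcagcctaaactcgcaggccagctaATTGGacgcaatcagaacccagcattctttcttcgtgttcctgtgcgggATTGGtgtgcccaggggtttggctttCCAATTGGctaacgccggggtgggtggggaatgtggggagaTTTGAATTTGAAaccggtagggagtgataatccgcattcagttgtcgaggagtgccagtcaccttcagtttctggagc

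Among the promoters of the 10 called mitosis genes, 8 held TTTGAA and 9 held CCAAT. In CDCA3 the TTTGAA began 3 bases before the start and the CCAAT 37 bases before it. In HMMR a pair of TTTGAA stood directly side by side, 28 and 22 bases before the start, and a CCAAT overlapped an ATTGG. KIF20A held only ATTGG, and KIF2C held neither motif. Of all 66 listed promoters of the mitosis list (55 of its 64 genes matched), 66.7% held TTTGAA and 77.3% held CCAAT, against 15.2% and 34.6% of all 35116 promoters. Over all decreased genes (121 of 194 matched, 168 promoters) the shares were 15.5% and 29.8%. They were 10.7% and 30.5% over all increased genes (332 of 442 matched, 512 promoters), and 10.6% and 34.5% over all genes tested. The ONECUT core ATCGAT or ATTGAT, on either strand, stood in 2.98% of the promoters of decreased genes, in 3.91% of those of increased genes, in 4.28% of those of all genes tested and in 6.96% of all promoters. These matches are letters in a window and were not set against binding data.

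Genes of DNA replication changed less. Of 48 tested, 1 fell and 1 rose (2.08% each, against 1.59% and 3.62% of all genes). A negative change was seen in 40 of the 48, against 4730 of all 12214 genes tested. The median was -0.36 (-0.24 with siRNA1, -0.37 with siRNA2). MCM6, a subunit of the replicative helicase, was at 8.75 and 11 RPKM with siCtrl, 6.09 with siRNA1 and 1.51 with siRNA2 (change -1.65, limma adjusted p = 0.407), so its fall was mostly with siRNA2, and it was not called without siRNA2 or without siCtrl replicate 2. CCNE1, the cyclin of S phase entry, was at 3.89 and 4.35 RPKM with siCtrl, 13.7 with siRNA1 and 5.56 with siRNA2 (change 1.07, limma adjusted p = 0.534), and that call was lost without either siCtrl library or without siRNA1.

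Of 22 tested cell cycle inhibitors and related genes, 4 rose (18.2%, against 3.62% of all genes) and 1 fell (4.55%, against 1.59%). CDKN1A, the p21 inhibitor of cyclin-dependent kinases, was at 6.26 and 6.98 RPKM with siCtrl, 20.6 with siRNA1 and 27.6 with siRNA2 (change 1.83, SE 0.35, limma adjusted p = 0.167). SESN2, a stress-induced sestrin that restrains mTORC1, was at 0.639 and 0.908 with siCtrl and at 4.65 and 4.47 with siOC2. SESN3 was at 0.603 and 0.872 with siCtrl and at 2.75 and 2.74 with siOC2, and TP53INP1, a proapoptotic p53 target in other cells, was at 1.05 and 1.48 and at 3.86 and 4.11. In these 4 genes every siOC2 library was above every siCtrl library, which their choice as called genes favors. All 4 calls held with any 1 library left out. With a filter of 5 RPKM, 1 of 15 tested members was called increased, and SESN2, SESN3 and TP53INP1 were not tested. CDKN2C, the p18 inhibitor, was at 9.70 and 10.9 RPKM with siCtrl and at 3.14 and 6.52 with siOC2 (change -1.16, limma adjusted p = 0.503), a call lost without either siCtrl library or without siRNA1. The list median was 0.23, with 0.39 for siRNA1 and 0.06 for siRNA2.

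NOX5 had the strongest evidence of a decrease among all genes tested, the histone genes included. NOX5, a calcium-activated oxidase that makes superoxide, was at 43.5 and 46.2 RPKM with siCtrl, 4.89 with siRNA1 and 5.43 with siRNA2. Its change of -3.10 (SE 0.29) was the only one that passed adjustment over all genes (limma adjusted p = 0.0468), and it kept its direction and its call under each alternative run. The adjusted p of NOX5 was above 0.05 with no filter on low values (0.0542), with the normoxic libraries alone (0.0834), with a replicate block that crossed the siCtrl numbers (0.0874) and whenever 1 library was left out (0.0832 to 0.426). NOX5 spans chr15:69307034-69355102 in GRCh37 (plus strand), and a readthrough model of the same symbol overlaps it in the annotation. LOXL1, a lysyl oxidase that crosslinks elastin, was at 207 and 229 RPKM with siCtrl, 51.9 with siRNA1 and 32 with siRNA2 (change -2.42, SE 0.28, limma adjusted p = 0.0603). STRA6, the retinol uptake receptor, was at 15.9 and 16.7 with siCtrl and at 3.97 and 2.80 with siOC2 (change -2.25, limma adjusted p = 0.0663). In each of the 3 genes, chosen as called, both siOC2 libraries were far below both siCtrl libraries.

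CST2, a secreted cystatin that inhibits cysteine proteases, was at 8.63 and 9.5 RPKM with siCtrl, 1.15 with siRNA1 and 0.0867 with siRNA2, the largest fall among the decreased genes with no exact 0 that were named (-4.24, SE 0.81). TRIM31, a ubiquitin ligase of the gut epithelium, was at 9.31 and 11.5 with siCtrl, 2.00 with siRNA1 and 0.393 with siRNA2. Both were lower with siRNA2 than with siRNA1. UCN2, the stress peptide urocortin 2, was at 3.39 and 4.22 RPKM with siCtrl and at 0.390 and 0.790 with siOC2, and its gene overlaps PFKFB4 on the same strand. LXN, latexin, a carboxypeptidase inhibitor, was at 23.1 and 28.5 with siCtrl and at 7.59 and 3.16 with siOC2. TMEM158, a Ras-induced membrane protein, was at 11.2 and 11.3 with siCtrl and at 3.47 and 1.63 with siOC2. CYP1A1, an enzyme of aromatic hydrocarbon metabolism, was at 3.39 and 4.79 with siCtrl and at 0.554 and 0.944 with siOC2, a call lost without siCtrl replicate 2.

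Less certain were TMX2-CTNND1 and ZMYM6NB. TMX2-CTNND1, a readthrough of neighboring genes, was at 2.46 and 1.02 RPKM with siCtrl and under the pseudocount of 0.1 in both siOC2 libraries, and its call was lost when any 1 library was left out. ZMYM6NB was at 3.27 and 3.74 RPKM with siCtrl, 1.55 with siRNA1 and 0.0392 with siRNA2, and its call was lost without either siCtrl library or without siRNA2. MYADM was the 1 called gene listed at exactly 0 in 1 library of a group and above 10 RPKM in the other (0 with siRNA1, 38.2 with siRNA2, 75.1 and 95.9 with siCtrl). Such a 0 also stood for HSPA8, a chaperone that every cell uses, so MYADM is given only as listed.

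Among the increased genes, FGF7 and CLDN1 stood out by fold. FGF7, the keratinocyte growth factor, was at 0.473 and 0.288 RPKM with siCtrl, 19.1 with siRNA1 and 10 with siRNA2 (change 4.89, SE 0.58, limma adjusted p = 0.0603). CLDN1, a tight junction claudin, was at 0.580 and 0.915 with siCtrl, 16.3 with siRNA1 and 23.7 with siRNA2 (change 4.57, SE 0.74, limma adjusted p = 0.124). RELN, the secreted glycoprotein reelin that guides neurons, was at 0.335 and 0.113 with siCtrl and at 2.97 and 7 with siOC2. All 3 were under 1 RPKM in both siCtrl libraries and well above it with each siRNA, so a fitted fold rests on the pseudocount as well.

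GPX2, a glutathione peroxidase, was at 1.39 RPKM in siCtrl replicate 1 and 31.9 in replicate 2, against 80.5 with siRNA1 and 133 with siRNA2. The groups did not overlap, but its change of 3.91 was 6.12 without siCtrl replicate 2 and 1.69 without siCtrl replicate 1. AMTN, the enamel matrix protein amelotin, was at 0.533 and 0.223 RPKM with siCtrl and at 14.3 and 2.97 with siOC2. NPY, neuropeptide Y, was at 1.25 and 0.825 with siCtrl and at 5.74 and 14 with siOC2. TNFRSF11B, the decoy receptor osteoprotegerin, was at 0.643 and 0.768 with siCtrl and at 4.53 and 8.30 with siOC2. Below 1 RPKM with siCtrl were also OLAH, a fatty acid thioesterase (0.526 and 0.355, then 3.12 and 6.53 with siOC2), NDUFA4L2, a mitochondrial protein known as hypoxia-induced (0.515 and 0.106, then 3.29 and 2.82), and ARHGDIG (0.159 and 0.520, then 3.30 and 4.46).

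Inflammatory genes had the highest median of the lists examined. Of 31 tested cytokines, chemokines and NF-kappaB genes, 10 rose (32.3%, against 3.62% of all genes) and 0 fell, with a median of 0.87 (1.09 with siRNA1, 0.70 with siRNA2). None had an adjusted p under 0.05 in the limma fit. IL6, a cytokine of acute inflammation, was at 2.27 and 2.79 RPKM with siCtrl, 61.5 with siRNA1 and 12.3 with siRNA2 (change 3.40, SE 0.65, limma adjusted p = 0.167). CSF3, the granulocyte growth factor, was at 1.28 and 1.80 with siCtrl and at 5.69 and 7.19 with siOC2. CCL2, the monocyte chemokine, was at 6.27 and 8.11 with siCtrl and at 17.8 and 34.1 with siOC2, and CCL20 was at 0.499 and 0.248 and at 2.04 and 4.19. NFKBIZ, a nuclear NF-kappaB regulator, was at 25.6 and 31.0 with siCtrl and at 71.0 and 46.9 with siOC2. In these 5 genes the groups did not overlap, which their choice as called genes favors. IL6 was far higher with siRNA1 than with siRNA2. The call of CCL20 was lost without siCtrl replicate 2 or siRNA2, and that of NFKBIZ without siCtrl replicate 1 or siRNA1.

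The other called members were CXCL1, IL24, TNFAIP3, CXCR4 and IL1A. CXCL1, a neutrophil chemokine, was at 2.94 and 3.02 RPKM with siCtrl and at 10.1 and 13.5 with siOC2. IL24, a cytokine of the IL10 family, was at 0.340 and 0.512 with siCtrl, 2.60 with siRNA1 and 13.2 with siRNA2. The IL24 call was lost without siCtrl replicate 1 or without siRNA2. TNFAIP3, the A20 brake on NF-kappaB, was at 5.2 and 4.42 with siCtrl and at 10.9 and 18.0 with siOC2. The count of 10 was 4 without siCtrl replicate 1 and 5 without siCtrl replicate 2, with medians of 0.84 and 1.03. Of 35 interferon-stimulated genes, 4 rose (11.4%, against 3.62% of all genes) and 0 fell, with a median of 0.46 (0.50 with siRNA1, 0.29 with siRNA2). MX1, an antiviral GTPase, was at 0.560 and 1.01 RPKM with siCtrl and at 4.97 and 3.07 with siOC2. IFI44L, OAS1 and MX2 had changes of 1.27, 1.44 and 1.43. All increased interferon calls were lost without siCtrl replicate 1 or without siRNA1. The list median was 0.45 without siCtrl replicate 1 and 0.59 without siCtrl replicate 2.

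Genes of the integrated stress response were higher too. This pathway lets cells short of amino acids or with unfolded proteins translate ATF4, which then switches on amino acid synthesis and transport. Of 24 tested genes 7 rose (29.2%, against 3.62% of all genes) and 0 fell. A positive change was seen in 23 of the 24, against 7484 of all 12214 genes tested. The median was 0.66 (0.72 with siRNA1, 0.57 with siRNA2). CHAC1, which degrades glutathione, was at 1.10 and 1.17 RPKM with siCtrl, 13.4 with siRNA1 and 6.70 with siRNA2 (change 2.96, SE 0.48, limma adjusted p = 0.126). TRIB3, a pseudokinase induced by ATF4, was at 4.48 and 5.21 with siCtrl and at 26.8 and 15.8 with siOC2. ASNS, asparagine synthetase, was at 8.08 and 9.14 with siCtrl and at 34.3 and 18.8 with siOC2. In all 3, chosen as called, the siOC2 libraries were above the siCtrl libraries and siRNA1 gave the higher level. SESN2, described above, also belongs to this list, and VLDLR, DDIT3 and SLC7A11 were the other called members (changes 1.03, 1.47 and 1.13). Without siCtrl replicate 1 the count was 4.

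Chaperones of the endoplasmic reticulum had a median of 0.37, with 0.57 for siRNA1 and 0.29 for siRNA2, and 2 of 22 rose (9.09%, against 3.62% of all genes). HERPUD1, a component of the degradation machinery, was at 53.4 and 71.8 RPKM with siCtrl, 324 with siRNA1 and 92.4 with siRNA2 (change 1.48, limma adjusted p = 0.523), and SEL1L, its partner in that machinery, was at 16.6 and 14.5 with siCtrl and at 35.6 and 27.3 with siOC2. The call of HERPUD1 was lost without either siCtrl library and that of SEL1L without siCtrl replicate 2. Both calls were lost without siRNA1. Among 30 NRF2 target genes, which defend against oxidants, 4 rose (13.3%, against 3.62% of all genes) and 1 fell (3.33%, against 1.59%), with a median of 0.21. GPX2 (above), AKR1C3, SLC7A11 and EPHX1 were the increased members, while ABCC3, an export pump, was at 18.1 and 19.6 RPKM with siCtrl and at 7.77 and 6.39 with siOC2 (change -1.41, limma adjusted p = 0.187). The calls of AKR1C3, SLC7A11 and EPHX1 were lost without siCtrl replicate 1, and those of SLC7A11 and EPHX1 also without siCtrl replicate 2. Without siRNA2 the calls of AKR1C3 and SLC7A11 were lost, and without siRNA1 that of EPHX1.

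Hypoxia-inducible genes, measured here at normal oxygen, had a higher median with siRNA1 than with siRNA2. HIF is the oxygen-sensing factor that induces them when oxygen falls. Of 34 tested HIF target genes, 4 rose (11.8%, against 3.62% of all genes) and 3 fell (8.82%, against 1.59%), with a median of 0.41. Taken singly, siRNA1 gave a median of 0.71 and siRNA2 one of 0.10, against 0.13 and 0.14 over all genes. Of the 34 genes, 16 were above the siCtrl mean with each siRNA and 4 were below it with each. Over all 12214 genes tested these counts were 5022 and 2618. Which members were called depended on the library left out. The list median was 0.22 without siCtrl replicate 1 and 0.45 without siCtrl replicate 2. NDRG1, a stress-induced metastasis suppressor, was at 176 and 192 RPKM with siCtrl, 425 with siRNA1 and 70.9 with siRNA2, and was not called. BNIP3, a mitophagy receptor, was at 21.9 and 25.8 with siCtrl, 58.6 with siRNA1 and 18.4 with siRNA2. In both genes siRNA1 lay above and siRNA2 below the siCtrl libraries (both were chosen after their values were seen).

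VEGFA, the angiogenic growth factor, was at 138 and 170 RPKM with siCtrl, 100 with siRNA1 and 23.3 with siRNA2 (change -1.66, limma adjusted p = 0.438), and SLC2A1, the GLUT1 glucose transporter, was at 16.3 and 17.3 with siCtrl and at 10.4 and 5.37 with siOC2. Both calls were lost without siRNA2 or without siCtrl replicate 2. CA12, a carbonic anhydrase, was lower with each siRNA, at 26.3 and 27.5 RPKM with siCtrl and at 8.52 and 11.8 with siOC2 (change -1.41, limma adjusted p = 0.304). STC2, a secreted stanniocalcin, was at 12.6 and 14.9 with siCtrl and at 28.3 and 36.5 with siOC2, and STC1 was at 8.99 and 9.87 and at 31.0 and 21.3. STC1, STC2 and CA12 kept their calls with any 1 library left out. SLC2A3 was among the other increased members. Of 20 glycolysis genes, 1 (SLC2A1) fell (5%, against 1.59% of all genes) and 0 rose, with a median of 0.17 with siRNA1 and -0.33 with siRNA2. The glycolysis median was -0.06 without siCtrl replicate 1 and -0.08 without siCtrl replicate 2. LDHA, lactate dehydrogenase, was at 865 and 917 RPKM with siCtrl, 1180 with siRNA1 and 460 with siRNA2, and GAPDH was at 1550 and 1710 and at 1350 and 1180.

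**Figure D1:**
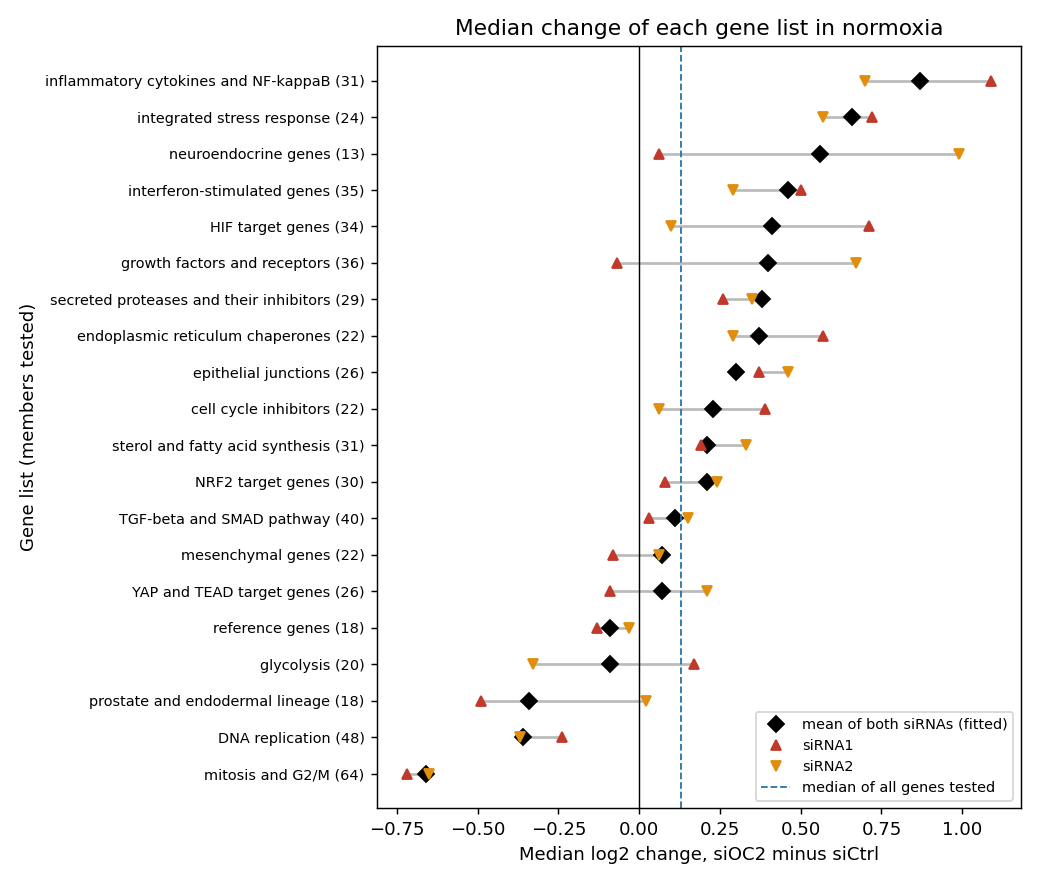
Median log2 change (siOC2 minus siCtrl) of each gene list for both siRNAs together (diamonds), siRNA1 and siRNA2 (triangles), with the number of members tested in brackets and the median of all genes tested as a dashed line. The siRNAs nearly coincide for mitosis (-0.72 and -0.65) and lie apart for HIF targets (0.71 and 0.10), growth factors (-0.07 and 0.67) and glycolysis (0.17 and -0.33).

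Epithelial junction genes had a median of 0.30, and 4 of 26 rose (15.4%, against 3.62% of all genes) while 0 fell. Beside CLDN1, these were JUP, the plakoglobin of desmosomes (3.07 and 3.88 RPKM with siCtrl, 7.70 and 7.81 with siOC2), ESRP1, the epithelial splicing regulator (2.68 and 4.34, then 13.5 and 8.76), and CRB3, a polarity protein (1.18 and 0.576, then 2.37 and 2.47). The count was 1 without siCtrl replicate 1, the call of ESRP1 was also lost without siRNA1, and that of CRB3 was lost whenever any 1 library was left out, with a pseudocount of 1 (change 0.89), with upper-quartile scaling and with the replicate block. Of 22 mesenchymal genes, 1 fell (4.55%, against 1.59% of all genes) and 0 rose, with a median of 0.07. COL4A1, a basement membrane collagen, was at 10.4 and 10.2 RPKM with siCtrl and at 5.58 and 2.42 with siOC2 (change -1.46, limma adjusted p = 0.307), a call lost without siRNA2. VIM, vimentin, was at 120 and 126 with siCtrl, 39.5 with siRNA1 and 81.9 with siRNA2, which was not called (limma adjusted p = 0.682), and TGFBI was at 109 and 114 and at 166 and 89.4.

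Of 29 secreted proteases and inhibitors, 5 rose (17.2%, against 3.62% of all genes) and 2 fell (6.9%, against 1.59%), with a median of 0.38. MMP1, an interstitial collagenase, was at 0.134 and 0.126 RPKM with siCtrl and at 0.968 and 2.31 with siOC2. MMP13 was at 0.0709 and 0.104 with siCtrl and at 0.837 and 1.34 with siOC2, while MMP10 was listed at 0 and 0.0656 with siCtrl and at 1.71 and 2.06 with siOC2. All 3 were near or below the pseudocount with siCtrl, and the call of MMP13 was lost without siCtrl replicate 1 or siRNA2. CST4, another salivary cystatin, was at 4.34 and 4.30 RPKM with siCtrl and at 2.08 and 0.991 with siOC2, a call lost without siRNA2. TFPI2 was among the other increased members. Fewer members were called increased whenever 1 library was left out. The list median then lay between 0.26 and 0.37.

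Of 36 growth factors and receptors, 4 rose and 0 fell (11.1%, against 3.62% of all genes), with a median of 0.40 that was -0.07 for siRNA1 and 0.67 for siRNA2. MET, the receptor for hepatocyte growth factor, was at 9.52 and 8.29 RPKM with siCtrl and at 25.9 and 18.5 with siOC2 (change 1.29, limma adjusted p = 0.224). FGF1 was at 0.395 and 1.34 with siCtrl, 16.2 with siRNA1 and 2.00 with siRNA2, and FGF5 was at 0.996 and 1.34 and at 2.57 and 3.76. FGF7 (above) was the fourth. The calls of FGF1 and FGF5 were lost without siCtrl replicate 1, that of FGF1 also without siRNA1 and that of FGF5 also without siCtrl replicate 2 or siRNA2. The list median was 0.21 without siCtrl replicate 1 and 0.53 without siCtrl replicate 2.

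Of 40 genes of the TGF-beta and SMAD pathway, 3 rose (7.5%, against 3.62% of all genes) and 1 fell (2.5%, against 1.59%), and the median of 0.11 was near that of all genes. LTBP3, which stores latent TGF-beta in the matrix, was at 52.4 and 63.9 RPKM with siCtrl and at 22.2 and 23.8 with siOC2 (change -1.33, SE 0.26, limma adjusted p = 0.167). GDF15, a stress-induced ligand, was at 4.92 and 3.82 with siCtrl and at 20.1 and 18.7 with siOC2 (change 2.13, limma adjusted p = 0.203). SMURF2, a ubiquitin ligase for SMAD proteins, was at 37.2 and 48.7 with siCtrl, 132 with siRNA1 and 74.3 with siRNA2, a call lost without siCtrl replicate 1 or siRNA1. The siRNAs gave like levels for LTBP3 and GDF15. Fewer members were called increased without siCtrl replicate 1 or without siRNA1. The list median was 0.03 and 0.15 in these runs.

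The remaining lists moved little. Of 26 YAP and TEAD targets 2 rose (7.69%, against 3.62% of all genes), RBMS3 and NUAK2, with changes of 1.75 and 1.52 and a list median of 0.07. Both calls were lost without siRNA1, and that of NUAK2 also without either siCtrl library. Of 31 sterol and fatty acid synthesis genes 1 fell (3.23%, against 1.59% of all genes) and 0 rose, with a median of 0.21. FADS1, a fatty acid desaturase, was at 74.4 and 81.8 RPKM with siCtrl and at 32.1 and 35.5 with siOC2 (change -1.21, limma adjusted p = 0.4), while SQLE was at 59.9 and 71.6 and at 88.1 and 93.4, and FDPS at 143 and 157 and at 170 and 220, neither called. The FADS1 call was lost without siCtrl replicate 2 or without siRNA1. Of the 18 reference genes 0 were called, with a median of -0.09. RPLP0, for example, was at 1580 and 1500 RPKM with siCtrl and at 1190 and 1310 with siOC2.

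Neuroendocrine and lineage genes were few at measurable levels. Of 38 neuroendocrine genes in the table, 13 were tested, 2 rose (15.4%, against 3.62% of all genes) and 0 fell, with a median of 0.06 for siRNA1 and 0.99 for siRNA2. SYT1, the calcium sensor of vesicle release, was at 1.12 and 1.03 RPKM with siCtrl, 1.71 with siRNA1 and 5.57 with siRNA2, and SCG5, a secretory granule protein, was at 0.394 and 0.612, 5 and 1.07. Each rose mainly with a different siRNA, with 0 called when either siCtrl library was left out and 1 without siRNA1. Of 18 prostate and endodermal lineage genes, 1 fell and 1 rose (5.56% each, against 1.59% and 3.62% of all genes), with a median of -0.34. FOXA1, the pioneer factor of luminal and endodermal cells, was at 23.8 and 28.7 RPKM with siCtrl and at 10.9 and 12.7 with siOC2 (change -1.14, SE 0.35, limma adjusted p = 0.347). Its call was lost without siCtrl replicate 2 or without siRNA1. KRT6A, a keratin of stressed epithelium, was at 1.03 and 3.77 with siCtrl and at 7.74 and 13.5 with siOC2, a call lost without siCtrl replicate 1 or without siRNA2.

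The siRNAs differed from each other far more than the siCtrl libraries did. Between siRNA1 and siRNA2, 2033 of the 12214 genes (16.6%) were over 2-fold apart, against 348 (2.85%) between the siCtrl libraries. Taken against the siCtrl mean, 480 genes were over 2-fold lower and 529 higher with siRNA1 only, 435 lower and 820 higher with siRNA2 only, and 154 lower and 357 higher with each. In 83 genes the siRNAs went over 2-fold in opposite directions. The difference recurred in hypoxia, where 1815 of the 2033 genes (89.3%) had the same siRNA higher, and 62.0% by over 2-fold, in libraries separate from the normoxic ones. Of all genes tested, 32.6% were over 2-fold apart between the siRNAs in hypoxia, in either direction. The hypoxic siRNA1 library was shallower, at a relative depth of 0.348 against 0.88 with siRNA2. Its median change over all genes tested was -0.28, against 0.23 with siRNA2 in hypoxia. The part of depth and scale in the hypoxic differences was not tested. Across all genes tested the siRNA1 minus siRNA2 difference in normoxia and in hypoxia had a Pearson correlation of 0.618, a description over genes that are not independent. With 1 library per siRNA and oxygen level no test was made.

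Examples of opposite change, chosen after their values were seen, include abundant genes. CAPZA1, an actin capping subunit, was at 121 and 148 RPKM with siCtrl, 363 with siRNA1 and 30.8 with siRNA2. GLIPR1, a p53 target, was at 60.1 and 69.4 with siCtrl, 292 with siRNA1 and 28.8 with siRNA2, and NEDD4, a ubiquitin ligase, was at 9.65 and 9.57, 26.9 and 2.54. F2R, the thrombin receptor, went the other way, at 4.92 and 5.16 with siCtrl, 1.81 with siRNA1 and 17.1 with siRNA2. SOX2, a stem cell and neuroendocrine lineage factor, was at 1.40 and 1.74 with siCtrl, 0.384 with siRNA1 and 5.71 with siRNA2. In hypoxia the siRNA1 and siRNA2 libraries were at 241 and 35.6 RPKM for CAPZA1, at 328 and 31.8 for GLIPR1 and at 0.247 and 4.02 for SOX2. The fitted changes of these 5 genes lay between -0.34 and 0.50, and none was called.

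**Figure D2:**
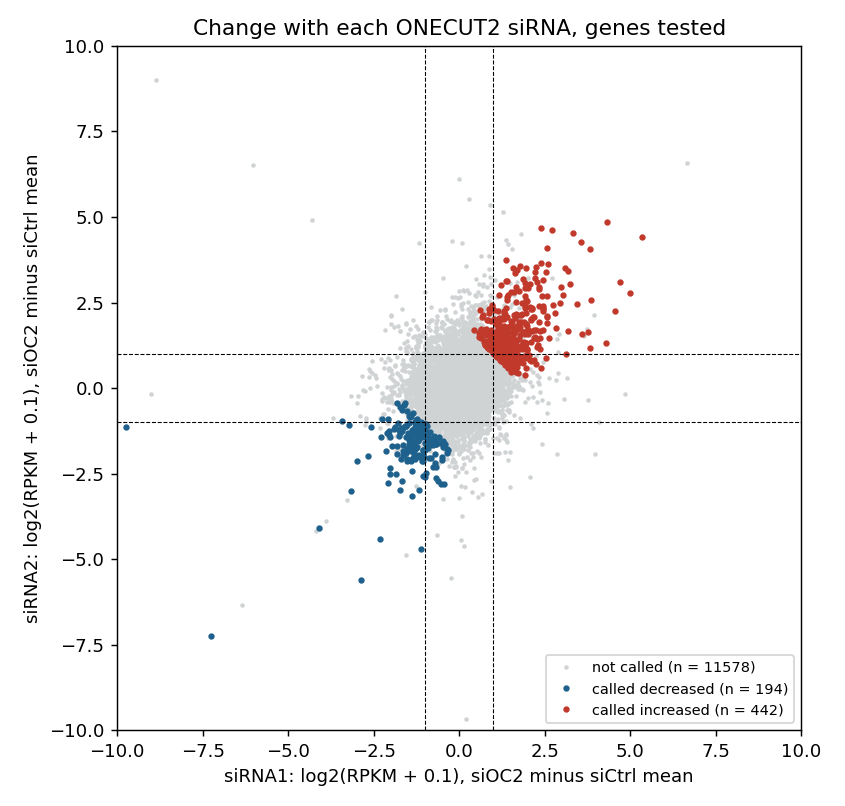
Log2 change of each tested gene with siRNA1 (x axis) and siRNA2 (y axis), each against the mean of the siCtrl libraries, with called genes colored and dashed lines at 2-fold. Called genes (194 decreased, 442 increased) fill the lower left and upper right, and 83 genes lie beyond 2-fold in opposite corners (1 gene lies outside the plotted range).

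The changes were set beside the hypoxic libraries, which share no control library with the normoxic comparison but received the same siRNAs. The hypoxic libraries also entered the spread behind the calls, so the shares below are not independent of the choice of genes. Of the 194 decreased genes, 160 (82.5%) were also over 2-fold lower on silencing in hypoxia, against 6.38% of all genes, and of the 442 increased genes 241 (54.5%) were over 2-fold higher, against 5.60%. In hypoxia the change was -4.11 for NOX5, 4.38 for FGF7 and 4.13 for CLDN1, and the median of the 60 histone cluster genes was -1.65. ARHGDIG, at 0.733 and 2.94 RPKM with siCtrl and 0.612 and 4.34 with siOC2 in hypoxia, had a change there of 0.16. The interaction of silencing with oxygen passed an adjusted p of 0.05 in 0 genes in the limma fit. In that fit 126 genes had an unadjusted P under 0.05, where 611 would be expected with no change. These included NOX5 (interaction -1.01, log2), UCN2 (-1.59) and ARHGDIG (-3.14), which met the fold and unadjusted limits of a call. After adjustment, a difference between the oxygen levels was not shown for any gene named here. The spread within siOC2 includes the difference between the siRNAs, so this result does not show that the changes were equal.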

How the data were processed

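RNA-Seq of PC3 cells was deposited as 1 table of RPKM values, which the authors made from TruSeq Stranded mRNA libraries by aligning trimmed reads to hg19 (GRCh37) with STAR 2.4.2a and estimating levels per gene symbol with Cufflinks 2.1.1, per the labels and the submitters' processing notes. RPKM are not counts, so no count model was used, and the absolute depth is unknown. Relative depth was estimated from the steps between low values. Groups were taken from the sample titles, with 2 libraries in each of 4 groups.

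Genes that reached 1 RPKM in 2 or more of the 8 PC3 libraries were tested with limma 3.58.1 (R 4.3.3, mean-variance trend) on log2(RPKM + 0.1), for siOC2 minus siCtrl in normoxia, so fold changes of low genes are understated. A call needed more than a 2-fold change and an unadjusted P under 0.05, and adjusted p-values follow Benjamini and Hochberg across the tested genes. Each siRNA was set against the siCtrl mean with no test. The fit was tested on simulated data. Named genes were the ONECUT genes and SMAD3, the 12 largest called changes in each direction (over 2-fold with each siRNA, at least 1 RPKM in both libraries of the higher group, no exact 0, no clone names), up to 5 called members of each list by smallest P or else its 2 most abundant members, genes with an adjusted p under 0.05, and called genes with an exact 0 beside over 10 RPKM. Others are given as chosen after their values were seen, or as the remaining called members of a list. Members and lists were chosen with earlier results of these data known. Promoters were read from RefSeq with Python 3.11.15, and positions from a GRCh37 annotation. Figures were drawn with matplotlib 3.10.9. Alternatives covered the pseudocount, the filter, the scaling, the adjusted p, the normoxic libraries alone, a replicate block, exact 0 as missing and leaving out each library. Columns of LNCaP cells and the ChIP-Seq samples were not used here. A few genes that the rule or the marker list would name are not reported here.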

Additional observations from a re-analysis of the deposited data

Results flagged for a closer look

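The medians of several gene lists lay on opposite sides of 0 in normoxia and in hypoxia. That of all genes tested did so too (0.13 and -0.03). For the cell cycle inhibitors, the median log2 change on silencing was 0.23 in normoxia and -0.22 in hypoxia. For the HIF target genes it was 0.41 in normoxia and -0.35 in hypoxia. The sign also changed for growth factors (0.40 and -0.24), secreted proteases (0.38 and -0.15) and endoplasmic reticulum chaperones (0.37 and -0.03). The same held for sterol and fatty acid synthesis (0.21 and -0.05), mesenchymal genes (0.07 and -0.14) and YAP and TEAD targets (0.07 and -0.06). None of these differences was tested.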

How the results depend on the processing

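All 636 called genes kept their direction under every alternative in which they were tested. With a pseudocount of 1 the increased genes numbered 273, and 161 with both siRNAs. With a filter of 5 RPKM they numbered 266, and 166 with both siRNAs. With an adjusted p for the call, 1 gene was decreased and 0 increased, and the counts with both siRNAs were also 1 and 0. Leaving out 1 library at a time gave 111 to 370 decreased and 225 to 540 increased genes, and 89 to 110 decreased and 184 to 338 increased with both siRNAs (the last 2 counts cannot be had when an siOC2 library is left out). The list medians of cell cycle inhibitors, glycolysis, mesenchymal genes, growth factors, YAP and TEAD targets and lineage genes changed sign under some alternative. Among the normoxic libraries, siCtrl deviations had a correlation of -0.107 with the siOC2 deviations of matching number. An siOC2 number also marks the siRNA in both oxygen levels (correlation 0.618 between them). The value of -0.107 therefore cannot show whether matching numbers mark a pair, and such pairing was not tested. The replicate block gave 250 decreased and 511 increased genes, 137 and 307 with both siRNAs, and 25 genes with an adjusted p under 0.05 in place of 1. Crossing the siCtrl numbers, chosen after seeing the data, gave 222 decreased and 470 increased genes and 0 with an adjusted p under 0.05 (limma). The unknown absolute depth and 2 libraries per group limit genes near 1 RPKM most.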
